A study of Rattus norvegicus with 16 samples.

Results

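Macrophages were followed here through 10 genes that mark resident tissue macrophages: Adgre1, Csf1r, Cd163, Mrc1, Cd68, C1qa, C1qb, C1qc, Cd14 and Msr1. A gene was taken as a member when the name in the deposited count table equalled one of these symbols, which gave 10 of the 23285 genes. All 10 were among the 16948 genes tested after the filter on low counts. RNA was sequenced from 4 tendons of Sprague Dawley rats, namely the Achilles, the forepaw flexor, the patellar and, from the shoulder, the supraspinatus tendon. The 16 libraries of total RNA, 4 from each tendon, carry no label of a treatment or genetic change. Age and sex were not given in the sources used here. Levels are CPM, counts relative to a library total scaled by TMM, a normalisation that sets the bulk of genes level across libraries. Differences are log2 fold changes of the first-named tendon over the second ± SE, from edgeR's quasi-likelihood test with p-values adjusted over all genes tested and a threshold of 0.05.

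Resident macrophages clear dying cells and worn matrix, present antigen and release growth factors and cytokines. Their survival depends on the Csf1 receptor, and their identity on the transcription factor PU.1, encoded by Spi1. In healthy tendon they lie mainly in the loose tissue around and between the fascicles, while skeletal muscle, fat and vessels that adjoin a tendon carry macrophages of their own.

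The promoters of these genes were looked at for the purine-rich core GAGGAA, which occurs in binding sites of PU.1 and its ETS-family relatives. The motif was chosen with results of these data known. In the RefSeq promoter table (build GRCr8, 250 bases before to 50 after the annotated start, 300 in all), 8 of the 10 members had an entry. The motif was searched on both strands, as GAGGAA or TTCCTC, which cannot overlap each other. It was found in 6 of the 8 entries (75%), against 27.6% of all 33469 promoters in the table. Shown are Adgre1 and Cd68, both highest in patellar tendon, and C1qb, the member with the flattest levels. Capitals mark the matches, and each is written 5′ to 3′ along the gene.
Adgre1, chr9:2329190-2329489, plus strand: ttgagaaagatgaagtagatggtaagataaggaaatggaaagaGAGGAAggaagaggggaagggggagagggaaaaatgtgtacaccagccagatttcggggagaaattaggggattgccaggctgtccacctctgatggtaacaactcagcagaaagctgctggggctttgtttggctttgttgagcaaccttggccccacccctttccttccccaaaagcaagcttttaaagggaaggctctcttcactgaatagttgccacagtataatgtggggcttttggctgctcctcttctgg
Cd68, chr10:54882392-54882691, minus strand: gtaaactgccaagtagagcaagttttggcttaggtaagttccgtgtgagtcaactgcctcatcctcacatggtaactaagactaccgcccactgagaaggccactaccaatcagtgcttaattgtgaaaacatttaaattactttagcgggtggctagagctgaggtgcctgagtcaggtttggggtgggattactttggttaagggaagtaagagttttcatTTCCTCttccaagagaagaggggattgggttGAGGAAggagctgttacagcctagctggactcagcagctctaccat
C1qb, chr5:154407778-154408077, minus strand: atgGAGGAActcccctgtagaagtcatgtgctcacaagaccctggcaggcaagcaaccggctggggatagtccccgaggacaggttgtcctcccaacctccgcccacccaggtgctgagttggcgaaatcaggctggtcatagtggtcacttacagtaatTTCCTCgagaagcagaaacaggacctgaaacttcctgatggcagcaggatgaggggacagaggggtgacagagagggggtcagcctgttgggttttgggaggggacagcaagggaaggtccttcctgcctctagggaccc
Adgre1 carried 1 match, Cd68 2 and C1qb 2. A match is a description of the letters and not a measured binding site. In the RefSeq gene order C1qb, C1qc and C1qa are direct neighbours on chromosome 5. Annotated pseudogenes overlap Adgre1 (2 of them) and Msr1 (1), and a long noncoding RNA and Mir511 overlap Mrc1, so reads of these members could be shared with them.

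Library totals ran from 85403509 to 102491699 counts in Achilles, 92673343 to 102130759 in flexor, 63397591 to 74829951 in patellar and 81788059 to 101675519 in supraspinatus libraries. At these depths 3 counts corresponded to 0.0266 to 0.0485 CPM, and no member fell near that floor, which covers counting error only. The tendon genes Tnmd and Scx were detected in all 16 libraries, at 195 to 1054 CPM and 5.67 to 86.4 CPM. Skeletal muscle transcripts were present as well and differed widely between libraries. The summed level of 13 muscle markers was 529.6 to 8431 CPM in Achilles, 13871 to 52873 CPM in flexor, 400.2 to 30119 CPM in patellar and 116186 to 218389 CPM in supraspinatus libraries. The labels do not say that libraries came from separate animals, so p-values measure the spread between these samples, which may be technical.

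Adgre1, Cd68, Cd14 and Msr1 differed among the 4 tendons, which is 4 of 10 members, against 75.6% of all genes tested. The receptor genes Csf1r, Cd163 and Mrc1 and the 3 C1q chains did not pass that test. The members that differed went opposite ways: Adgre1 and Cd68 were highest in patellar tendon, where Cd14 and Msr1 were lowest. The summed level of the 10 genes was 1166 ± 243 CPM in Achilles, 1167 ± 236 CPM in flexor, 1181 ± 343 CPM in patellar and 960 ± 314 CPM in supraspinatus tendon (SD, n = 4 each). The ranges of these sums overlapped between all 4 tendons. In bulk RNA, fewer macrophages and less RNA per macrophage cannot be told apart.

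**Figure D1:**
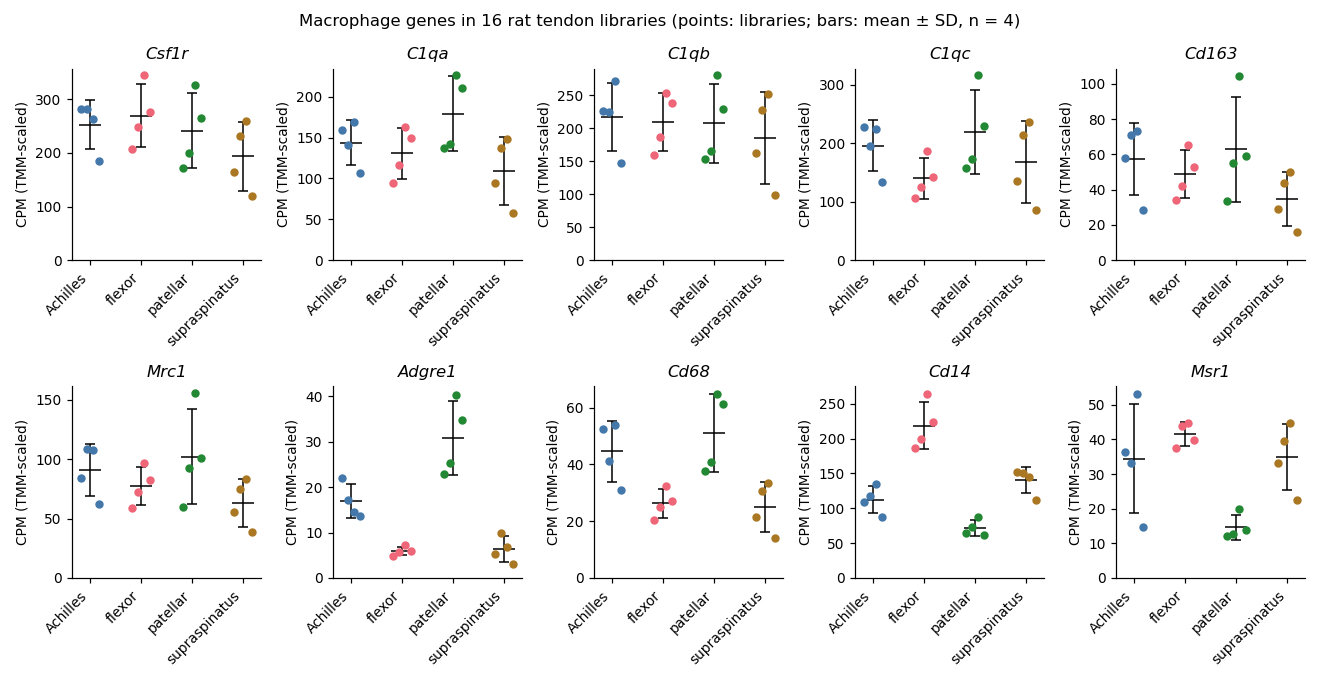
Level of each of the 10 macrophage genes in CPM (vertical axis) by tendon (horizontal axis), with 1 point per library and bars for mean ± SD over 4 libraries. Csf1r and the C1q chains overlap between all 4 tendons, Adgre1 stands highest in patellar libraries (22.9 to 40.3 CPM), and Cd14 stands highest in flexor libraries (187 to 264 CPM).

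The same members were then compared pair by pair. For Achilles minus flexor, 3 members were called, against 47.7% of all genes, with 2 of them higher (23.5% of all genes) and 1 lower (24.1%). Flexor minus patellar had 4, against 50.5% of all genes, with 2 higher (25.8%) and 2 lower (24.7%). Achilles minus supraspinatus had 2, against 50.1%, both of them higher (25.4%) and none lower (24.7%). Flexor minus supraspinatus had 1, Cd14, against 47.7%, which was higher (23.4% of all genes, with 24.3% lower). Patellar minus supraspinatus had 5, against 56.4%, with 3 higher (28.8%) and 2 lower (27.5%). Achilles minus patellar had 2, against 5.16% of all genes, both of them higher (3.1%) and none lower (2.06%). That count ran from 0 to 3 with single libraries left out, being 0 without Achilles 2, Achilles 3, patellar 1, patellar 2 or patellar 4 in turn and 1 without Achilles 1. The median log2 difference over the 10 members was 0.18 for Achilles minus flexor, -0.15 for Achilles minus patellar, 0.39 for Achilles minus supraspinatus, -0.39 for flexor minus patellar, 0.25 for flexor minus supraspinatus and 0.54 for patellar minus supraspinatus. Over all genes these medians lay between -0.03 and 0.05. On library totals without TMM, 6 members were called in Achilles minus supraspinatus and 8 in patellar minus supraspinatus tendon, where the medians of all genes then stood at 0.47 and 0.46.

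**Figure D2:**
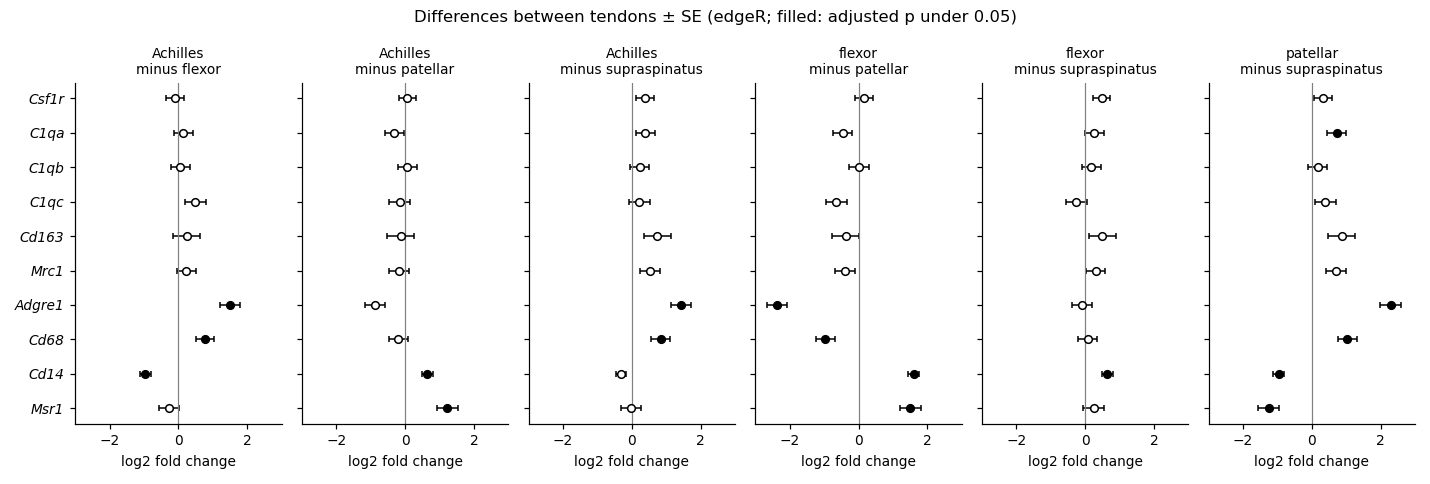
Log2 fold change ± SE (horizontal axis) of each macrophage gene (rows) in the 6 pairs of tendons, from edgeR, with filled points for an adjusted p under 0.05. Adgre1 and Cd68 lie on the opposite side of 0 from Cd14 and Msr1 in flexor minus patellar and patellar minus supraspinatus tendon, and Csf1r, C1qb and C1qc have no filled point.

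Csf1r (ENSRNOG00000018414), the receptor for Csf1 and Il34 on which macrophage survival rests, had 282, 281, 263 and 185 CPM in the Achilles libraries 1 to 4 and 207, 249, 346 and 276 CPM in the flexor libraries. It had 172, 201, 328 and 266 CPM in the patellar libraries and 164, 232, 260.3 and 119 CPM in the supraspinatus libraries. All 4 tendons overlapped, and the means of 253 ± 45.8 CPM in Achilles, 269 ± 58.5 CPM in flexor, 241 ± 69.5 CPM in patellar and 194 ± 64.2 CPM in supraspinatus tendon did not differ beyond the spread between libraries (edgeR, adjusted p = 0.352 among the 4). The tendon accounted for 24.9% of the squared deviations of its log2 CPM, where the median over all genes tested was 70.5%.

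C1qa, C1qb and C1qc encode the chains of C1q, the recognition molecule that starts the classical complement pathway and tags debris for uptake. C1qb (ENSRNOG00000012749) was the flattest of the 10 members. It had 226, 224, 271 and 147 CPM in Achilles, 159.7, 186, 254 and 237 CPM in flexor, 154, 165, 281 and 229.6 CPM in patellar and 163, 228, 252 and 98.0 CPM in supraspinatus libraries. The libraries of all 4 tendons overlapped, 7.55% of the squared deviations lay between tendons, and the adjusted p among the 4 tendons was 0.875 (edgeR). C1qc (ENSRNOG00000012804) averaged 196 ± 43.6 CPM in Achilles, 139.8 ± 34.6 CPM in flexor, 219 ± 71.8 CPM in patellar and 168 ± 69.8 CPM in supraspinatus tendon (SD, n = 4 each; edgeR, adjusted p = 0.241). Its flexor libraries (106 to 187 CPM) lay low but overlapped with those of each other tendon.

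C1qa (ENSRNOG00000012807) had 159, 141, 168 and 106 CPM in Achilles, 94.7, 116, 163 and 149 CPM in flexor, 138, 143, 226 and 211 CPM in patellar and 93.9, 137, 148 and 58.0 CPM in supraspinatus libraries. It was the only C1q chain with a pair of tendons past the threshold, being 1.64-fold higher in patellar than in supraspinatus tendon (log2 0.72 ± 0.27, adjusted p = 0.0372, edgeR). The patellar and supraspinatus libraries overlapped, between 138 and 148 CPM. Without supraspinatus 4, the lowest library, this call was lost, as it was without Achilles 2, flexor 2, patellar 3, patellar 4 or supraspinatus 1 in turn, and with the muscle markers as a covariate the value was -0.19 (adjusted p = 0.823, edgeR).

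Cd163, the scavenger receptor for haemoglobin bound to haptoglobin, and Mrc1, the mannose receptor that takes up glycoproteins and collagen fragments, mark perivascular and connective tissue macrophages. Cd163 (ENSRNOG00000010253) had 58.2, 70.8, 73.0 and 28.6 CPM in Achilles, 34.0, 42.3, 65.6 and 52.7 CPM in flexor, 33.3, 55.2, 104 and 59.1 CPM in patellar and 28.8, 43.5, 49.8 and 16.1 CPM in supraspinatus libraries. Mrc1 (ENSRNOG00000018251) had 84.3, 109, 108 and 62.2 CPM in Achilles, 58.5, 72.1, 96.4 and 82.3 CPM in flexor, 59.5, 92.8, 155 and 101 CPM in patellar and 55.2, 74.8, 83.1 and 38.3 CPM in supraspinatus libraries. The tendons overlapped for both genes, and patellar 3 was the highest library of each. Neither passed the test among the 4 tendons (adjusted p = 0.214 for Cd163 and 0.159 for Mrc1, edgeR). For patellar minus supraspinatus tendon the log2 differences were 0.87 ± 0.39 for Cd163 (adjusted p = 0.073) and 0.70 ± 0.29 for Mrc1 (adjusted p = 0.0517), both short of the threshold.

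Adgre1 had the widest span of the 10 genes. It encodes the adhesion receptor known in mouse as F4/80, a surface marker of macrophages. Adgre1 (ENSRNOG00000046254) had 22.1, 17.2, 14.6 and 13.7 CPM in Achilles libraries, 4.90, 5.80, 7.23 and 5.88 CPM in flexor, 22.9, 25.3, 40.3 and 34.9 CPM in patellar and 5.30, 9.98, 6.89 and 3.14 CPM in supraspinatus libraries. Every patellar library lay above every library of the other tendons, every Achilles library lay above every flexor and supraspinatus library, and the flexor and supraspinatus libraries overlapped. Its log2 difference was -2.37 ± 0.30 for flexor minus patellar (5.18-fold lower in flexor, adjusted p = 1.8e-05) and 2.28 ± 0.30 for patellar minus supraspinatus tendon (4.87-fold, adjusted p = 2.2e-05, edgeR). For the Achilles tendon it was 1.51 ± 0.29 against flexor (adjusted p = 0.000731) and 1.42 ± 0.29 against supraspinatus tendon (adjusted p = 0.000995, edgeR). Achilles minus patellar was -0.87 ± 0.29 and missed the threshold although the libraries did not overlap (adjusted p = 0.0919), and flexor minus supraspinatus was -0.09 ± 0.29 (adjusted p = 0.822, edgeR).

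Cd68 encodes a heavily glycosylated protein of macrophage lysosomes. Cd68 (ENSRNOG00000037563) had 52.6, 41.2, 53.7 and 30.9 CPM in Achilles, 20.4, 25.1, 32.3 and 27.2 CPM in flexor, 37.6, 40.7, 64.7 and 61.1 CPM in patellar and 21.6, 30.8, 33.4 and 14.2 CPM in supraspinatus libraries. The patellar libraries lay above all flexor and supraspinatus libraries, whereas Achilles 4 fell within the range of both. Cd68 was 1.94-fold lower in flexor than in patellar tendon (log2 -0.96 ± 0.27, adjusted p = 0.00813) and 2.04-fold higher in patellar than in supraspinatus tendon (log2 1.03 ± 0.27, adjusted p = 0.00469, edgeR). The Achilles tendon exceeded flexor by 0.77 ± 0.27 (adjusted p = 0.0284) and supraspinatus by 0.84 ± 0.27 on the log2 scale (adjusted p = 0.0176, edgeR). The first of these calls was lost without Achilles 1, Achilles 3, flexor 1 or flexor 2 in turn, and the second without Achilles 3.

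Several lists of other cell types had their highest mean sum in patellar tendon, as Adgre1 and Cd68 did. Some of these lists parted from the 2 genes in flexor minus supraspinatus tendon, where neither gene was called (-0.09 for Adgre1, 0.07 for Cd68). There 6 of 8 adipocyte and 7 of 9 mast cell markers were higher (23.4% of all genes). Of 11 endothelial markers 7 were lower (24.3% of all genes). Other lists did not part in this way. Of 10 neutrophil markers 0 were called there, and of 13 dendritic cell and MHC class II genes 3, against 47.7% of all genes. The sum of the monocyte markers had another order, with a mean lowest in Achilles (283 CPM) and highest in flexor tendon (549 CPM). By gene most went the other way. In Achilles minus flexor tendon 5 of 8 were higher and 2 lower (23.5% and 24.1% of all genes). In flexor minus patellar 1 was higher and 6 lower (25.8% and 24.7%), and in patellar minus supraspinatus 6 were higher and 1 lower (28.8% and 27.5%). The summed level of 13 dendritic cell and MHC class II genes was 1086 to 1281 CPM in Achilles, 229.7 to 384.5 CPM in flexor, 950.8 to 2569 CPM in patellar and 228.5 to 530.4 CPM in supraspinatus libraries. All 13 were higher in patellar than in supraspinatus tendon (28.8% of all genes). With the muscle covariate 1 was, as were 1224 of all 16948 genes. In flexor minus patellar tendon 11 of 13 were lower and 1 higher (24.7% and 25.8% of all genes). Neutrophil markers summed to 17.3 to 36.9 CPM in Achilles, 3.82 to 4.06 CPM in flexor, 46.8 to 92.1 CPM in patellar and 2.79 to 3.77 CPM in supraspinatus libraries. All 10 tested neutrophil markers were lower in flexor than in patellar tendon (24.7% of all genes). All 10 were higher in patellar than in supraspinatus tendon (28.8% of all genes). The 9 adipocyte markers summed to 2876 to 10540 CPM in Achilles, 428.6 to 842.6 CPM in flexor, 4507 to 11698 CPM in patellar and 169.6 to 432.8 CPM in supraspinatus libraries. The 8 of them tested were all lower in flexor than in patellar tendon (24.7% of all genes) and higher in patellar than in supraspinatus tendon (28.8%). The 11 endothelial markers summed to 1456 to 2101 CPM in Achilles, 490.3 to 848 CPM in flexor, 1782 to 2929 CPM in patellar and 728.7 to 1479 CPM in supraspinatus libraries. All 11 were lower in flexor than in patellar tendon (24.7% of all genes). Of the 11, 10 were higher in Achilles than in flexor tendon (23.5%) and 9 were higher in patellar than in supraspinatus tendon (28.8%). S100a8 was at 0 in at least 1 library. The part of these cell types in the levels of Adgre1 and Cd68 was not tested.

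Cd14, the lipopolysaccharide co-receptor that hands its ligand to Toll-like receptor 4, had the reverse order. Cd14 (ENSRNOG00000017819) had 109, 118, 134 and 88.0 CPM in Achilles, 187, 199.6, 264 and 224 CPM in flexor, 63.9, 72.8, 88.1 and 62.2 CPM in patellar and 151, 151, 145 and 112 CPM in supraspinatus libraries. Every flexor library lay above every library of the other tendons, every patellar library lay below every supraspinatus library, and the lowest Achilles library lay just under the highest patellar one. Cd14 was 3.05-fold higher in flexor than in patellar tendon (log2 1.61 ± 0.16, adjusted p = 2.8e-06) and 1.56-fold higher in flexor than in supraspinatus tendon (log2 0.64 ± 0.16, adjusted p = 0.00358, edgeR). The difference was -0.96 ± 0.16 for Achilles minus flexor (adjusted p = 0.0002) and -0.96 ± 0.16 for patellar minus supraspinatus tendon (adjusted p = 0.000143, edgeR). Achilles minus patellar was 0.65 ± 0.16 (adjusted p = 0.0303, edgeR), a call that was lost without Achilles 2, Achilles 3, patellar 1, patellar 2 or patellar 4 in turn.

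Msr1, the class A scavenger receptor that binds modified lipoproteins and bacteria, was set apart by the patellar tendon. Msr1 (ENSRNOG00000012779) had 36.2, 33.3, 53.2 and 14.8 CPM in Achilles, 37.6, 43.8, 44.8 and 39.8 CPM in flexor, 12, 12.8, 20 and 13.9 CPM in patellar and 33.3, 39.4, 44.8 and 22.6 CPM in supraspinatus libraries. The patellar libraries lay below all flexor and supraspinatus libraries, while Achilles 4 lay among the patellar ones. Msr1 was 2.83-fold higher in flexor than in patellar tendon (log2 1.5 ± 0.31, adjusted p = 0.000943) and 2.39-fold lower in patellar than in supraspinatus tendon (log2 -1.26 ± 0.30, adjusted p = 0.00282, edgeR). Achilles minus patellar was 1.23 ± 0.30 (adjusted p = 0.0327, edgeR), and this call was lost without Achilles 1, Achilles 2, Achilles 3, patellar 1, patellar 2 or patellar 4 in turn.

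Synovial lining and sheath genes were low in patellar tendon, as Cd14 and Msr1 were. The summed level of these 8 genes was 1756 to 3070.4 CPM in Achilles, 2865 to 4519.7 CPM in flexor, 765 to 1346 CPM in patellar and 2229 to 2634 CPM in supraspinatus libraries. In flexor minus patellar tendon 4 of the 8 were higher and 1 lower, against 50.5% of all genes called, and in patellar minus supraspinatus 1 was higher and 5 lower, against 56.4%. The sum had its highest mean in flexor tendon, at 3461 CPM, against 2292 CPM in Achilles and 2370 CPM in supraspinatus tendon. By gene the list was split, with 2 higher and 2 lower in Achilles minus flexor tendon. In flexor minus supraspinatus tendon 1 was higher and 2 lower, and 47.7% of all genes were called in each of these pairs. Prg4, the lubricin gene of lining cells, averaged 1275 ± 542 CPM in Achilles, 1246 ± 229 CPM in flexor, 103 ± 41.6 CPM in patellar and 809 ± 129 CPM in supraspinatus tendon. It was thus lowest where Msr1 was lowest, and the part of lining tissue in the levels of Cd14 and Msr1 was not tested.

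Within a tendon, the 10 genes moved up and down together from library to library. With tendon means removed, all 45 pairs of members correlated positively over the 16 libraries, with a median Pearson r of 0.877 and a range from 0.566 to 0.986. These values are descriptive, since genes of 1 library share its depth, scaling and tissue makeup. C1qa and C1qb had the highest value (0.986), and pairs with Cd14, Adgre1 or Msr1 the lowest. All 10 members lay below their tendon mean in Achilles 4, flexor 1, patellar 1 and supraspinatus 4, by a median log2 of -0.50, -0.36, -0.40 and -0.78. All 10 lay above it in flexor 3, patellar 3, supraspinatus 2 and supraspinatus 3, by a median of 0.33, 0.48, 0.38 and 0.49.

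**Figure D3:**
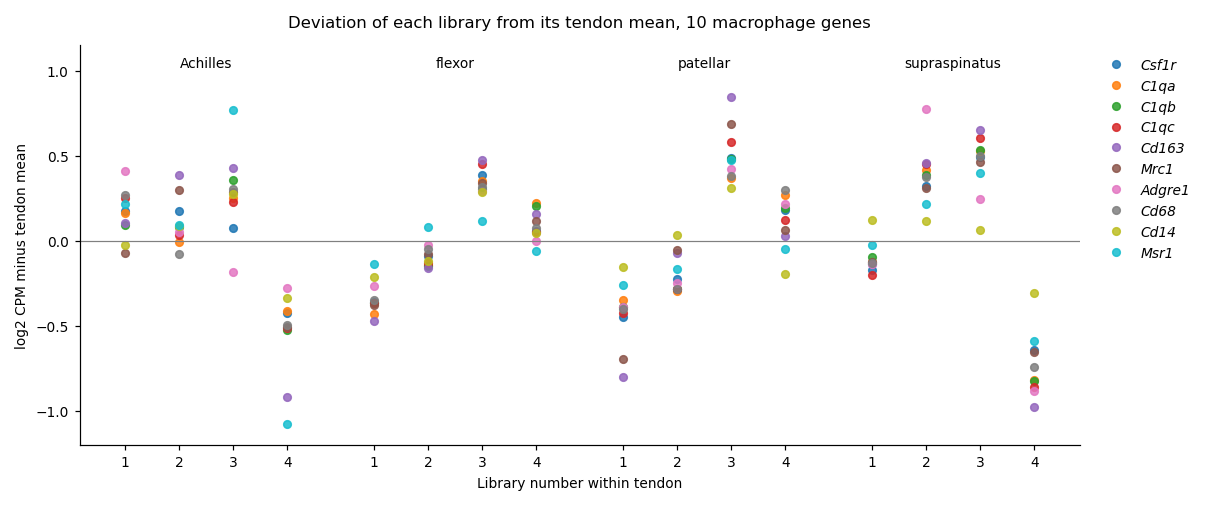
Log2 CPM minus the tendon mean (vertical axis) for each of the 10 macrophage genes (colours) in libraries 1 to 4 of each tendon (horizontal axis). The points of a library lie together: all 10 fall below 0 in Achilles 4, flexor 1, patellar 1 and supraspinatus 4.

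Muscle RNA was compared with this shared rise and fall. In 3 of the 4 tendons the library with the most muscle RNA was also the one with the lowest sum of macrophage genes, with 909 CPM of the 10 genes in flexor 1, 849.6 CPM in patellar 1 and 567 CPM in supraspinatus 4. Flexor 3 and patellar 3 had the least muscle RNA of their tendons and the highest sums, 1460 and 1624 CPM. The other tendons did not follow this: Achilles 1 had the least muscle RNA but a sum of 1257 CPM, against 1364 CPM in Achilles 3, and supraspinatus 2 had the least but a sum of 1159 CPM, against 1261 CPM in supraspinatus 3. In the Achilles tendon the lowest sum, 811 CPM, was in Achilles 4, whose muscle RNA of 8041 CPM was close to the 8431 CPM of Achilles 2, where the sum was 1232 CPM. When the mean level of the muscle markers was added to the model as a covariate, 3 members differed among the 4 tendons. Of all 16948 genes tested 9452 then did. In patellar minus supraspinatus tendon 2 members passed, and 2183 of all genes. Adgre1 then had a log2 difference of 0.89 for Achilles minus flexor (adjusted p = 0.0697), 0.39 for Achilles minus supraspinatus (0.668) and 1.29 for patellar minus supraspinatus tendon (0.0772), all short of the threshold in edgeR. Cd68 missed it in all 4 of its pairs, at 0.12, -0.24, -0.35 and -0.0067 for Achilles minus flexor, Achilles minus supraspinatus, flexor minus patellar and patellar minus supraspinatus, and Cd14 missed it in flexor minus supraspinatus tendon (0.41, adjusted p = 0.065, edgeR). No supraspinatus library overlapped in muscle RNA with a library of another tendon, so there the covariate and the tendon cannot be told apart.

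Because the members shared this scatter, each was also expressed relative to Csf1r in the same library. A log2 ratio of this kind is read only for how it differs between tendons, since gene lengths were not used. An exact permutation test over all 2627625 partitions of the 16 libraries into 4 groups of 4, adjusted over the 16947 genes other than Csf1r, called 7 of the 9 other members, against 42.8% of all genes. Within tendons these members correlated with Csf1r at 0.743 to 0.983, so the ratio removed scatter they shared with it. Other genes need not share that scatter, so these shares do not stand on a like footing. The ratio of Adgre1 to Csf1r was -3.91 ± 0.23 in Achilles, -5.48 ± 0.09 in flexor, -2.96 ± 0.05 in patellar and -4.99 ± 0.33 in supraspinatus tendon (SD, n = 4 each). The tendon accounted for 96.7% of its squared deviations, and the exact p of 3.81e-07 is the smallest this permutation test can give (adjusted p = 0.000307). For Cd68 the ratio was -2.52 ± 0.21 in Achilles, -3.35 ± 0.05 in flexor, -2.24 ± 0.10 in patellar and -2.97 ± 0.07 in supraspinatus tendon (exact permutation p = 1.14e-06, adjusted p = 0.000365). The flexor tendon thus had the lowest ratio of both genes and the patellar tendon the highest.

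Relative to Csf1r, differences also appeared in members whose CPM did not pass. The ratio of C1qc was -0.38 ± 0.14 in Achilles, -0.95 ± 0.05 in flexor, -0.15 ± 0.08 in patellar and -0.25 ± 0.16 in supraspinatus tendon (exact permutation p = 0.000209, adjusted p = 0.00302). The ratio of C1qa was -0.82 ± 0.14 in Achilles, -1.05 ± 0.11 in flexor, -0.42 ± 0.11 in patellar and -0.85 ± 0.12 in supraspinatus tendon (exact permutation p = 0.000176, adjusted p = 0.00278). Flexor was lowest for both chains, and its C1qc ratios (-0.997 to -0.889) did not overlap with those of any other tendon. C1qb, from the same gene cluster, did not pass (exact permutation p = 0.0702, adjusted p = 0.117), nor did Cd163 (0.0608, adjusted p = 0.105). Mrc1 passed relative to Csf1r, at -1.49 ± 0.21 in Achilles, -1.80 ± 0.04 in flexor, -1.28 ± 0.22 in patellar and -1.62 ± 0.03 in supraspinatus tendon (exact permutation p = 0.00564, adjusted p = 0.0196). The unadjusted exact permutation p of C1qb was 0.00827 without Achilles 3, 0.0415 without flexor 4 and 0.0249 without supraspinatus 4. That of Cd163 was 0.0129 without Achilles 4 and 0.0291 without patellar 1. The outcomes of C1qb and Mrc1 also depended on the denominator. Relative to the mean of the other members, the exact permutation p was 0.00163 for C1qb and 0.163 for Mrc1, unadjusted.

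For Cd14 and Msr1 the patellar tendon was again lowest. The ratio of Cd14 to Csf1r was -1.17 ± 0.18 in Achilles, -0.29 ± 0.10 in flexor, -1.72 ± 0.33 in patellar and -0.42 ± 0.37 in supraspinatus tendon (exact permutation p = 1.75e-05, adjusted p = 0.000942). That of Msr1 was -2.998 ± 0.55 in Achilles, -2.68 ± 0.23 in flexor, -4.02 ± 0.17 in patellar and -2.45 ± 0.12 in supraspinatus tendon (exact permutation p = 0.00036, adjusted p = 0.00399). Flexor and supraspinatus tendon overlapped for both genes. Msr1 had its highest mean ratio in supraspinatus tendon and its highest mean CPM in flexor tendon.

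**Figure D4:**
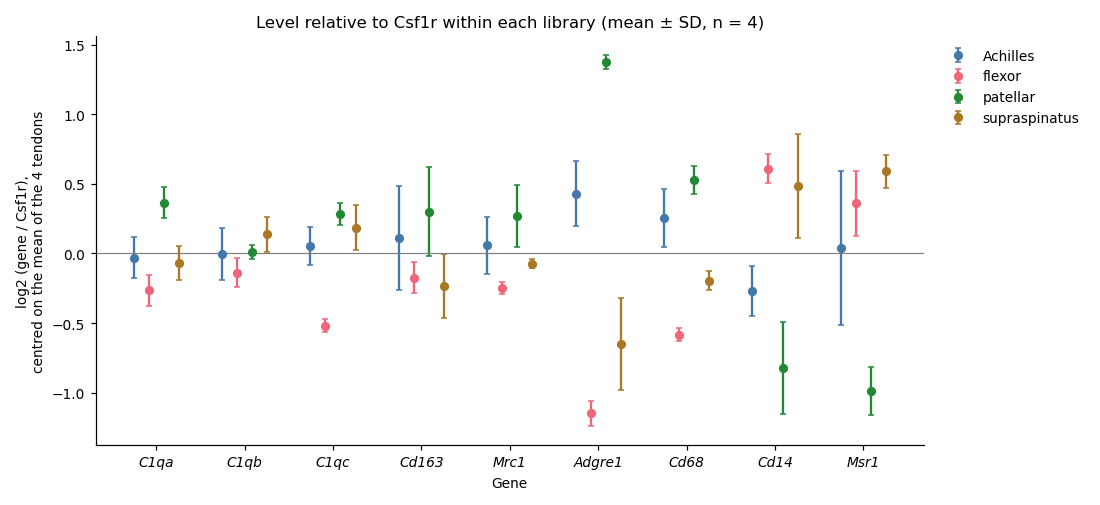
Log2 ratio of each gene to Csf1r in the same library (vertical axis), centred on the mean of the 4 tendons, with points for tendon means and bars for SD over 4 libraries. Patellar tendon is highest for Adgre1 and Cd68 and lowest for Cd14 and Msr1, and flexor tendon is lowest for C1qc.

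Further genes of macrophages were set beside the 10 members. Of 26 such genes tested, 24 differed among the 4 tendons, against 75.6% of all genes. The exceptions were Ctss and Folr2, named after their values were seen. In patellar minus supraspinatus tendon 17 were higher and 1 lower (28.8% and 27.5% of all genes). Achilles minus supraspinatus had 18 higher and none lower (25.4% and 24.7%), and Achilles minus flexor 12 higher and 1 lower (23.5% and 24.1%). In flexor minus patellar tendon 7 were higher and 9 lower (25.8% and 24.7%), so this list too was split. With the muscle covariate 14 of the 26 differed among the 4 tendons, as did 9452 of all 16948 genes tested. In patellar minus supraspinatus tendon 3 were then higher and 2 lower, with 1224 and 959 of all genes. Irf8, a transcription factor of monocytes and dendritic cells, averaged 26.0 ± 2.87 CPM in Achilles, 6.94 ± 0.36 CPM in flexor, 25.2 ± 3.63 CPM in patellar and 5.87 ± 1.66 CPM in supraspinatus tendon. Mertk, a receptor for the uptake of dying cells, averaged 40.3 ± 5.17 CPM in Achilles, 21.5 ± 1.26 CPM in flexor, 35.8 ± 6.82 CPM in patellar and 15.3 ± 2.43 CPM in supraspinatus tendon. Both thus shared the high Achilles and patellar levels of Adgre1.

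Vsig4, a complement receptor of resident macrophages, had an Achilles mean of 19.2 ± 17.1 CPM, against 1.59 ± 0.911 CPM in flexor, 0.501 ± 0.135 CPM in patellar and 0.376 ± 0.346 CPM in supraspinatus tendon. The spread between Achilles libraries was nearly as large as their mean. Cx3cr1, the fractalkine receptor, averaged 10.7 ± 3.15 CPM in Achilles, 5.48 ± 1.41 CPM in flexor, 3.03 ± 0.802 CPM in patellar and 1.80 ± 0.724 CPM in supraspinatus tendon. Irf8, Spi1 and Tyrobp stand on this list and on that of the Csf1 receptor axis.

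Among genes around the Csf1 receptor, 10 of 12 tested differed among the 4 tendons, where 75.6% of all genes did. In patellar minus supraspinatus tendon 8 were higher and none lower (28.8% and 27.5% of all genes). In flexor minus patellar 1 was higher and 4 lower (25.8% and 24.7%). Il34, the second ligand of Csf1r, averaged 54.8 ± 6.85 CPM in Achilles, 31.0 ± 4.93 CPM in flexor, 55.4 ± 10 CPM in patellar and 51.1 ± 4.89 CPM in supraspinatus tendon, lowest in flexor. Csf2rb, the shared receptor subunit for GM-CSF, interleukin-3 and interleukin-5, averaged 115 ± 63.1 CPM in Achilles, 33.4 ± 6.98 CPM in flexor, 132 ± 42.5 CPM in patellar and 16 ± 3.48 CPM in supraspinatus tendon. Csf2rb was highest in Achilles and patellar tendon.

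Of 17 complement genes that act with or after C1q, 13 differed among the 4 tendons, a share near the 75.6% of all genes. In flexor minus patellar tendon 9 were higher and 4 lower (25.8% and 24.7% of all genes). C2, the protease that follows C1 in the cascade, averaged 117 ± 46.8 CPM in Achilles, 36.9 ± 3.6 CPM in flexor, 143 ± 24.8 CPM in patellar and 27.6 ± 9.65 CPM in supraspinatus tendon. C3, the central component, averaged 9.16 ± 4.09 CPM in Achilles, 48.8 ± 23.3 CPM in flexor, 14.6 ± 4.41 CPM in patellar and 1.22 ± 0.59 CPM in supraspinatus tendon. C2 and C3 did not share an order across the tendons.

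Of 12 tested partners of Cd14 in Toll-like receptor signalling, 7 differed among the 4 tendons, against 75.6% of all genes. Lbp, which delivers lipopolysaccharide to Cd14, averaged 265 ± 95.9 CPM in Achilles, 103 ± 19.9 CPM in flexor, 31.8 ± 14.3 CPM in patellar and 51.1 ± 17.3 CPM in supraspinatus tendon. The adaptor gene Myd88 averaged 72.0 ± 15.2 CPM in Achilles, 51.8 ± 9.25 CPM in flexor, 81.5 ± 6 CPM in patellar and 39.8 ± 5.74 CPM in supraspinatus tendon. Neither had the flexor peak of Cd14. Of 12 scavenger and endocytic receptors 11 differed, and Scara3 did have that peak, at 343 ± 29.0 CPM in Achilles, 1108 ± 303 CPM in flexor, 201 ± 27.4 CPM in patellar and 474 ± 87.5 CPM in supraspinatus tendon. So did Colec12, a collectin with scavenger function, at 254 ± 13.7 CPM in Achilles, 507 ± 141 CPM in flexor, 165 ± 28.5 CPM in patellar and 325 ± 65.6 CPM in supraspinatus tendon.

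In the haem and iron pathway served by Cd163, 8 of 10 genes differed among the 4 tendons, again near the 75.6% of all genes. In flexor minus patellar tendon 2 were higher and 6 lower (25.8% and 24.7% of all genes). Blvra, which makes bilirubin from biliverdin, averaged 25.0 ± 4.24 CPM in Achilles, 12.5 ± 0.905 CPM in flexor, 26.9 ± 1.49 CPM in patellar and 13.9 ± 0.887 CPM in supraspinatus tendon. Of 16 lysosome genes 12 differed among the 4 tendons, likewise near the 75.6% of all genes. Flexor minus patellar tendon had 3 higher and 5 lower (25.8% and 24.7% of all genes). Ctsz, a lysosomal cathepsin, averaged 92.5 ± 14.2 CPM in Achilles, 60.2 ± 2.48 CPM in flexor, 95.2 ± 4.92 CPM in patellar and 65.1 ± 6.17 CPM in supraspinatus tendon, an order close to that of Cd68. Lamp1 had another order, at 124 ± 48.7 CPM in Achilles, 727 ± 24.8 CPM in flexor, 189 ± 104 CPM in patellar and 108 ± 11.1 CPM in supraspinatus tendon. Blvra and Ctsz were both high in Achilles and patellar tendon.

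Markers of other leukocytes were set beside the members. Of 9 mast cell markers all 9 were higher in patellar than in supraspinatus tendon (28.8% of all genes) and 7 were lower in flexor than in patellar tendon (24.7%). Their sum was 119 to 214 CPM in Achilles, 77.2 to 157 CPM in flexor, 229.8 to 413 CPM in patellar and 36.0 to 59.1 CPM in supraspinatus libraries. Of 10 tested lymphocyte markers 9 were lower in flexor than in patellar tendon (24.7% of all genes). The T cell gene Cd3e stood at 0.194 to 1.34 CPM and the B cell gene Cd79a at 0 to 0.0445 CPM over the 16 libraries. Cd4 was far from this and averaged 44.2 ± 13 CPM in Achilles, 40.1 ± 13.4 CPM in flexor, 39.9 ± 11.4 CPM in patellar and 35.6 ± 11.2 CPM in supraspinatus tendon, so the lymphocyte sum was mostly Cd4. In the rat, monocytes and macrophages carry Cd4 as well as helper T cells. Among the 4 tendons all 8 tested monocyte, all 8 osteoclast and all 11 endothelial markers differed, against 75.6% of all genes. So did 5 of 7 lymphatic, 9 of 11 tendon fibroblast and 6 of 8 synovial genes, each near that share of all genes. Of 12 pan-leukocyte genes 11 differed among the 4 tendons, and 11 were higher in patellar than in supraspinatus tendon, where 28.8% of all genes were.

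**Figure D5:**
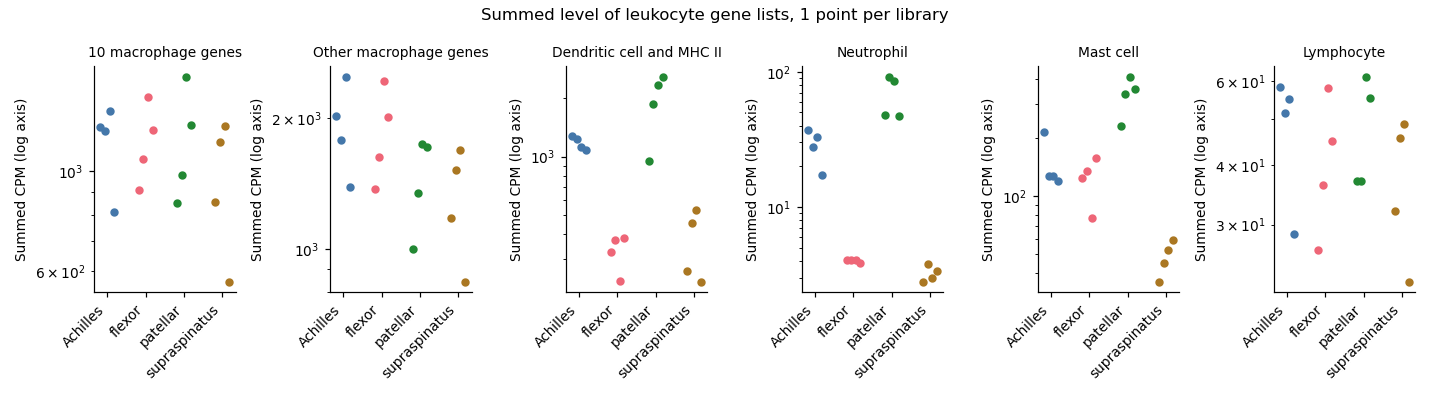
Summed CPM of 6 gene lists (vertical axes, logarithmic) by tendon (horizontal axes), with 1 point per library. The sum of the 10 macrophage genes overlaps between all 4 tendons, whereas the neutrophil sum is 46.8 to 92.1 CPM in patellar and 2.79 to 3.77 CPM in supraspinatus libraries.

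The genes most like the members over the 16 libraries were searched among all others with a symbol and a mean of at least 5 CPM. Likeness was the Pearson correlation of log2 CPM with the mean z-score of the 10 members, given as a description over libraries that share depth and tissue makeup. Folr2, the folate receptor found on resident macrophages, came first (0.972), followed by Cd4 (0.936), F13a1 (0.930), Btk (0.921), Nfam1 (0.911), Laptm5 (0.903), Ms4a6a (0.903) and Cndp1 (0.902). Folr2 averaged 51.9 ± 13.4 CPM in Achilles, 52.3 ± 10.3 CPM in flexor, 54.8 ± 17.2 CPM in patellar and 39.3 ± 14 CPM in supraspinatus tendon and did not differ among the 4 (adjusted p = 0.401, edgeR). For Csf1r alone the closest genes were Pf4 (0.933), Folr2 (0.933), Arrb2 (0.915), Selplg (0.913) and Slc29a3 (0.910).

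The closest genes of the members that differed were chosen after values were seen. For Adgre1 they were Fcna (0.985), which encodes ficolin A, a lectin of macrophages, and Mlkl (0.977), the effector of necroptosis. Fcna averaged 33.2 ± 10.6 CPM in Achilles, 9.80 ± 1.85 CPM in flexor, 97.7 ± 33.0 CPM in patellar and 9.46 ± 3.68 CPM in supraspinatus tendon. For Cd14 they were Inpp5k (0.979), Scara3 (0.973) and Colec12 (0.959). For Msr1 they were Lyve1 (0.936), Alox5 (0.929) and C5ar1 (0.922). Lyve1, a hyaluronan receptor of lymphatic endothelium and of some resident macrophages, averaged 155 ± 51.4 CPM in Achilles, 167 ± 35.3 CPM in flexor, 88.2 ± 17.9 CPM in patellar and 172 ± 53.1 CPM in supraspinatus tendon.

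The authors' deposited table of pairwise comparisons listed all 10 members in all 6 pairs, 60 values in all. Of these, 16 had an adjusted p under 0.05 in the authors' deposited table and 17 in the fit described here, with 16 in common. The exception was Cd68 in Achilles minus flexor, at a log2 fold change of 0.73 with an adjusted p of 0.0509 in the authors' deposited table. The sign was the same in 59 of 60, and the largest difference in log2 fold change between the authors' deposited table and this fit was 0.152.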

How the data were processed

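Total RNA of 16 rat tendon libraries, 4 per tendon, was purified with a miRNeasy Micro kit and sequenced after a standard Illumina preparation, per the labels' protocols. The deposited values are whole-number counts, 1 row per Ensembl gene. The submitters' processing notes name rn6, HISAT2, FastQC and edgeR. Counter, annotation release and strandedness were not given in the sources used here, so antisense and overlapping reads may be included. Per the file headers, a table of the authors' own holds log2 fold changes, p-values and adjusted p-values of every tendon pair.

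The labelled tendon set the group of a library. Genes were kept by filterByExpr (minimum count 10, minimum total 15). TMM scaling and a quasi-likelihood fit to all 16 libraries, with a coefficient for each tendon and 12 residual degrees of freedom, were run in edgeR 4.0.16 on R 4.3.3, with Benjamini-Hochberg adjustment per comparison at 0.05. SEs were computed as the absolute log2 fold change divided by the square root of F. Log2 CPM used a prior count of 2. Ratios to Csf1r were tested by exact permutation of libraries, adjusted over all genes rather than over the 9 ratios as first planned. The p-value was the share of partitions whose squared deviations between groups were at least as large as those between tendons. Exact tests used numpy 2.4.6 and numba in Python 3.11.15. The 10 genes and all 21 lists were chosen with earlier results of these data known, and 239 of 253 listed symbols were in the table. From each list at most 4 genes could be named by rule, by smallest p, and genes shown were picked from these. The rule asked for an adjusted p under 0.05 among tendons and, in the highest tendon, at least 5 CPM on average. Some list genes were named outside this rule, among them Scx, S100a8, Cd3e, Cd79a, Cd4, Ctss and Folr2. Marker lists of monocytes, osteoclasts, endothelium, lymphatics, tendon fibroblasts and synovial lining were run as well.

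The alternatives were median-of-ratios factors, library totals, DESeq2 1.42.0, limma-voom (limma 3.58.1), no filter, a filter of 1 CPM in 8 libraries, a replicate block, muscle markers as a covariate, pairs alone and each library left out. On simulated data for Achilles minus patellar (16754 genes), edgeR recovered 32, 64, 90 and 100% of genes changed 1.5, 2, 4 and 8-fold, and 4.03% of its calls were false.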

Additional observations from a re-analysis of the deposited data

Results flagged for a closer look

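Cd14 in supraspinatus 4 stood at 112 CPM, apart from the other supraspinatus libraries at 145 to 151 CPM, with a gap to the nearest of 0.846 of the range of the 4 libraries. It was the only one of the 40 combinations of gene and tendon examined to be singled out as far from the others in this way, and chance singles out about 1 in 20.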

How the results depend on the processing

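The 17 calls of a member in a pair of tendons gave 459 values under the alternatives, of which 420 kept direction and call, 36 kept direction but missed the threshold and 3 changed sign. The calls of Adgre1 in flexor minus patellar, Cd14 in Achilles minus flexor, flexor minus patellar and patellar minus supraspinatus, and Msr1 in flexor minus patellar and patellar minus supraspinatus passed under all 27 alternatives run.

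With the muscle covariate the members called numbered 1 in Achilles minus flexor, 0 in Achilles minus supraspinatus, 0 in flexor minus supraspinatus and 2 in patellar minus supraspinatus. Of all 16948 genes tested 4758 were then called in Achilles minus flexor, 1355 in Achilles minus supraspinatus and 5500 in flexor minus patellar. Flexor minus supraspinatus had 6107 and patellar minus supraspinatus 2183. Signs in pairs were followed only for the 17 calls and for 4 values that were not called. Among these, Cd68 changed sign with the covariate in Achilles minus supraspinatus (-0.24) and in patellar minus supraspinatus (-0.0067). In patellar minus supraspinatus C1qa (-0.19), Cd163 (-0.81) and Mrc1 (-0.53) did so too. The cause was not tested.

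With library totals in place of TMM the median log2 difference of all genes was 0.47 in Achilles minus supraspinatus, 0.31 in flexor minus supraspinatus and 0.46 in patellar minus supraspinatus. Members called were then 1 in Achilles minus patellar, 6 in Achilles minus supraspinatus, 2 in flexor minus supraspinatus and 8 in patellar minus supraspinatus. Genes called higher and lower were 8430 and 2275 in Achilles minus supraspinatus (4312 and 4185 with TMM), 6591 and 1830 in flexor minus supraspinatus (3964 and 4118), and 8424 and 2523 in patellar minus supraspinatus (4887 and 4668). Adgre1 in flexor minus supraspinatus, which was not called, was 0.22 with library totals and ran from -0.25 to 0.22 with single libraries left out.

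In Achilles minus patellar, 0 members and 268 genes were called with the pair fitted alone, and 1 member and 1381 genes without Achilles 1 and patellar 1. Genes called numbered 1977 with DESeq2. With single libraries left out the range was 0 to 3 members and 342 to 1415 genes.

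The library titles end in Rat and a number, and the labels do not say whether a number stands for an animal. Correlations between same-number libraries did not settle this, running from -0.21 to 0.37 with a median of 0.03. Of the 24 values 9 were over 0.1, and 8 of 16 libraries correlated best with their own number. The main fit used no block. With a replicate block the members called numbered 5 among the 4 tendons, 3 in Achilles minus flexor, 2 in Achilles minus patellar, 5 in Achilles minus supraspinatus, 5 in flexor minus patellar, 1 in flexor minus supraspinatus and 7 in patellar minus supraspinatus, and 12629 genes differed among the 4 tendons. With the block 8356 of 16948 genes were called in Achilles minus supraspinatus and 9434 in patellar minus supraspinatus, so the members' share of calls was not under that of all genes in these pairs, as it was without the block. Without Achilles 4 and supraspinatus 4, chosen after seeing the data, the counts were 4 among the 4 tendons and 3, 2, 2, 5, 1 and 4 in the pairs in that order. Of the 26 further macrophage genes 21 then differed among the 4 tendons, as did 12581 of all 17206 genes tested. The lowest count of a member in a library was 194, for Adgre1 in supraspinatus 4.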
